A study of Saccharomyces cerevisiae with 6 samples.

Results

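Small nucleolar RNAs (snoRNAs) were compared between 2 strains of the budding yeast Saccharomyces cerevisiae. The snoRNAs were taken as every row of the deposited expression table whose name starts with snR, apart from the 4 such rows of spliceosomal RNAs (snR6, snR7-S, snR14 and snR19), which left 73 of 7554 rows. By class, 45 were box C/D and 28 were box H/ACA snoRNAs. The RefSeq annotation of the yeast reference assembly holds 76 snoRNA genes; all 73 rows matched one of them, and SNR10, SNR60 and SNR73 are not analysed here. The dChr strain, yMH007, carries an artificial chromosome built to store data. The control strain, yMH104, carries an empty plasmid. Cultures of both grew at 30 °C in synthetic medium without uracil, and each strain gave 3 libraries prepared from extracted total RNA. Whether RNA was then selected by its poly(A) tail or depleted of rRNA is not given in the sources used here, so a level may stand for all forms of a snoRNA or for a part of them. The labels give no further genotype and name no separate cultures, so a p-value here measures the spread between these libraries.

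SnoRNAs are stable RNAs of the nucleolus that work as ribonucleoproteins. Box C/D snoRNAs mostly guide the methylation of ribose in rRNA by Nop1 (fibrillarin), and box H/ACA snoRNAs guide the conversion of uridine to pseudouridine by Cbf5 (dyskerin). Base pairing between the snoRNA and the rRNA picks the position. A few snoRNAs are instead needed to cut the rRNA precursor, among them U3, which yeast encodes in 2 genes, snR17a and snR17b, and the snoRNAs snR30, snR128 (U14) and snR10. Most yeast snoRNAs have a gene and promoter of their own, while others lie in introns of protein genes or are cut from a transcript that carries several snoRNAs.

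The sequences of the snoRNAs on which the comparison turned were read from RefSeq, assembly R64, which is taken here as the same S288C sequence as the sacCer3 build named in the submitters' processing notes. The deposited table holds no coordinates against which this could be checked. The U3 genes lie at chrXV:780107-780596 on the plus strand (snR17a, 490 bases) and at chrXVI:281056-281517 on the minus strand (snR17b, 462 bases). The first 240 bases of each are shown, since they hold most of the columns in which the gene sequences differ. Both genes hold an intron near the 5′ end, which this annotation does not mark. The intron is absent from the mature RNA, and its bounds were not set here. The identities that follow are therefore those of the genes, and the mature RNAs may be more alike. In an alignment of 491 columns, 81.1% were identical, and capitals mark each base that differs or faces a gap. The first 180 columns were 63.3% identical and the remaining 311 were 91.3% identical, so 66 of the 93 differing columns lay in the first 180.
snR17a: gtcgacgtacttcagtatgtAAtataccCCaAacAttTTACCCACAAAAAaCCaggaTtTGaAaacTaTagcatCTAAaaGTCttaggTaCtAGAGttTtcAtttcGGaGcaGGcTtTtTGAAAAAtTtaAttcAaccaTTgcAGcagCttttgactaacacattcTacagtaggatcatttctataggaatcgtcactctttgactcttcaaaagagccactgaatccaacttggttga
snR17b: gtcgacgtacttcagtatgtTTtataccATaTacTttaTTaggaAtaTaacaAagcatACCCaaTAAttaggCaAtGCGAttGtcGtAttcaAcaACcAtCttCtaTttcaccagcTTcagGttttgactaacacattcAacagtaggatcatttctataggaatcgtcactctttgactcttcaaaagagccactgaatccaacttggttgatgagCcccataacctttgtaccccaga

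The other 7 snoRNAs that passed the test between strains are shown 5′ to 3′ on their own strand. The only box C/D member among them is snR77 at chrXIII:297506-297593 (plus strand, 88 bases), in which capitals mark the C box NTGATGA near the 5′ end and the D box CTGA near the 3′ end. The 6 box H/ACA members are snR8 (chrXV:832332-832521, plus), snR161 (chrII:307185-307345, minus), snR34 (chrXII:899180-899382, plus), snR44 (chrXII:856710-856920, plus), snR83 (chrXIII:626349-626654, plus) and snR85 (chrXIII:67768-67938, minus). Of snR83 the last 240 bases are shown. In these, capitals mark the last ACA within the final 20 annotated bases.
snR77: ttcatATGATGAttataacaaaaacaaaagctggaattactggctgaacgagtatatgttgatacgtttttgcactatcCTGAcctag
snR8: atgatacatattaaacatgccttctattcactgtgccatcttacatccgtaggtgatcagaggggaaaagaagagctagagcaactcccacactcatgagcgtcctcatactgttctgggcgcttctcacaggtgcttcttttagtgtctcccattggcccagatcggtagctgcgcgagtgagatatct
snR161: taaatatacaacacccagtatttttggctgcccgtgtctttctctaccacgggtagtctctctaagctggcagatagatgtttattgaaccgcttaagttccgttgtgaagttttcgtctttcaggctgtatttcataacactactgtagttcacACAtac
snR34: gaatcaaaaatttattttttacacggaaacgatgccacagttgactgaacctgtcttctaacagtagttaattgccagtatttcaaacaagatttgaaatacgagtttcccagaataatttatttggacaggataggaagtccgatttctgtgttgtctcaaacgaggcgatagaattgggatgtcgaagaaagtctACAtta
snR44: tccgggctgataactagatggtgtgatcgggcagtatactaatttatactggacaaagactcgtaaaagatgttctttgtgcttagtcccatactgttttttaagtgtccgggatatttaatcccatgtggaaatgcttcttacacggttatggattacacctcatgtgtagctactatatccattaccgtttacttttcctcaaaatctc
snR83: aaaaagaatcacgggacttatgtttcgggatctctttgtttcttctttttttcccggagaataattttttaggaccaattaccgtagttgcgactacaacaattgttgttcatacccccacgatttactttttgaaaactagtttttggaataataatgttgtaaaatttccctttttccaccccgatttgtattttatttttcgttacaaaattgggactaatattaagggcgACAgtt
snR85: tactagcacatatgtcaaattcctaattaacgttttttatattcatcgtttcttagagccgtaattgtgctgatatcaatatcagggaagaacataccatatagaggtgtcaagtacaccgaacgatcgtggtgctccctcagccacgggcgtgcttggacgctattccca

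These motifs checked the class of the members. On the gene's own strand, NTGATGA occurred within the first 20 bases of 34 of 45 box C/D genes, 1 of 28 box H/ACA genes and 0.9% of 6401 other RefSeq genes. CTGA occurred within the last 20 bases of 43 of 45 box C/D genes, 2 of 28 box H/ACA genes and 9.3% of the other genes. ACA, a short and therefore common motif, was found in the last 20 bases of 19 of 28 box H/ACA genes, 15 of 45 box C/D genes and 24.5% of the other genes. The windows of snR8, snR44 and snR85 did not contain these letters, which says nothing about the RNA's mature end.

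Levels are in TPM (a length-normalised transcript abundance set to a common total in each library), so a gene's length enters its level. Levels of different snoRNAs are set side by side below as the table gives them; how far short or non-polyadenylated RNAs were recovered was not tested, and the spliceosomal U6 RNA, snR6, which every cell uses, was listed at 0 in 4 of 6 libraries. The scale does not retain read depth, which is unknown here, and neither a counting error nor a detection limit can be set. The 64 snoRNAs with a mean of at least 1 TPM were tested among 5938 transcripts by limma on log2(TPM + 1), and "called" means a Benjamini-Hochberg adjusted p under 0.05 over all of them. Fold changes are on this log2(TPM + 1) scale, dChr minus control, and they understate changes at low TPM. In bulk RNA, more of a snoRNA per cell and more cells that make it cannot be told apart. Control library 2 stood apart for several non-coding RNAs: it was far below both other control libraries in snR17a and snR37 and, among the spliceosomal RNAs, in snR7-S and snR19.

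Of the snoRNAs, 5 box H/ACA guides rose moderately in the dChr strain, and the minor U3 copy, a box H/ACA guide and a methylation guide fell. Of all tested transcripts 13.4% were called, 4.19% higher and 9.16% lower in the dChr strain. Of the 64 tested snoRNAs 5 were higher and 3 lower, together 12.5%, a share near that of all transcripts. The 5 higher calls became 1 when the libraries were scaled on the snoRNAs or the assembled transcripts were left out, and 1 to 3 when any single library was left out; the 3 lower calls became 2 to 4 without a library. At an unadjusted p under 0.05 there were 18 snoRNAs (28.1%), against 27.8% of all tested transcripts. The median log2 fold change was 0.09 over the snoRNAs and -0.04 over all tested transcripts. For 23 snoRNAs the strains had no overlapping libraries (35.9%), 15 higher and 8 lower, against 34.1% of all tested transcripts, of which 12.9% were higher and 21.2% lower.

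The classes had medians on different sides of zero. Of all tested transcripts 4.19% were called higher and 9.16% lower, which is the background for the counts that follow. Of 27 tested box H/ACA snoRNAs 5 were called higher and 1 lower, and their median log2 fold change was 0.26. At an unadjusted limma p under 0.05 there were 12 of them (44.4%), against 27.8% of all tested transcripts. Of 37 tested box C/D snoRNAs none was higher and 2 were lower (6, or 16.2%, at an unadjusted p under 0.05), with a median of -0.25. The strains' libraries did not overlap for 15 of 27 box H/ACA snoRNAs (55.6%), 13 higher and 2 lower. The same held for 8 of 37 box C/D snoRNAs (21.6%), 2 higher and 6 lower. All tested transcripts gave 34.1%, with 12.9% higher and 21.2% lower. Leaving out each library in turn moved the box H/ACA median between 0.19 and 0.31 and the box C/D median between -0.19 and -0.02, where the smallest size came without dChr library 1. Class and length cannot be told apart here, because every snoRNA of up to 150 bases was box C/D: the 7 box C/D snoRNAs longer than that had a median of 0.10, and 1 of them was called lower. Grouped by the rRNA that the annotation names, 3 of 21 tested snoRNAs for 18S rRNA were higher and 1 lower, and 1 of 35 for 25S rRNA was higher and 1 lower. Of the 6 tested snoRNAs named with both rRNAs 1 was higher.

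**Figure D1:**
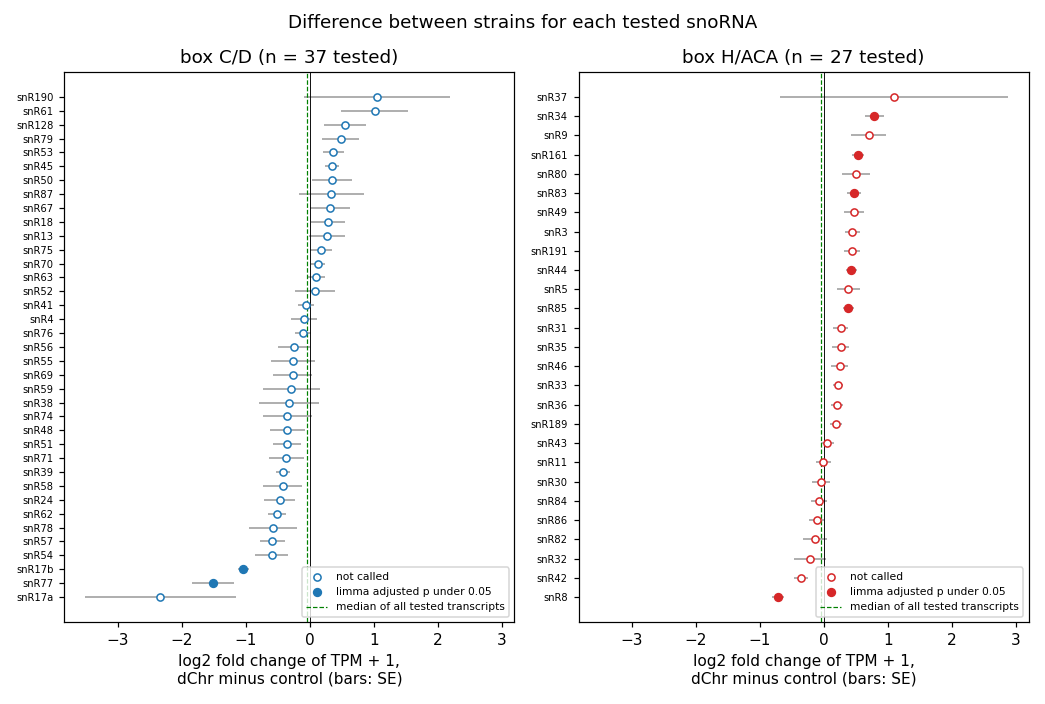
Difference between strains for each of the 64 tested snoRNAs, box C/D on the left (37) and box H/ACA on the right (27). The horizontal axis is the log2 fold change of TPM + 1, dChr minus control, bars are standard errors, filled points have a limma adjusted p under 0.05 and the dashed line is the median of all tested transcripts (-0.04). The 5 filled points to the right of zero are all box H/ACA, while snR17a, snR37 and snR190 have the widest bars.

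The minor U3 copy fell in the dChr strain. U3 base-pairs with the rRNA precursor and is part of the small-subunit processome, the particle in which the 18S rRNA precursor is folded and cut. snR17b stood at 119, 124 and 110 TPM in libraries 1, 2 and 3 of the dChr strain, against 248, 228 and 254 TPM in the control libraries. Every dChr library was thus below every control library, with means of 118 ± 6.94 and 244 ± 13.5 TPM (SD, n = 3). The log2 fold change was -1.04 (SE 0.0858, limma adjusted p = 0.000935). It was called under all 18 alternative settings, with adjusted p from 5.45e-05 to 0.00886 and log2 fold changes from -1.09 to -0.98.

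The major copy, snR17a, varied far more within the strains than snR17b. It stood at 2987, 11898 and 2641 TPM in the dChr libraries, against 57877, 3595 and 57727 TPM in the control libraries. Control libraries 1 and 3 were high and close together, while control library 2 lay 16.1-fold under them (on TPM + 1) and inside the range of the dChr strain, in which library 2 was the highest. The log2 fold change was -2.33 with an SE of 1.18, and it was not called (limma adjusted p = 0.260). Of 18 alternatives snR17a was called in 1, the fit without control library 2 (log2 fold change -3.67, limma adjusted p = 0.0426). Over the 18 its adjusted p reached 0.496. Summed over both copies, U3 ran from 2751 to 58126 TPM, and the difference between the strains did not pass an exact permutation test (two-sided p = 0.2, where 0.1 is the smallest that 3 against 3 libraries allow). Reads from the parts that the copies share cannot be assigned to either for certain, and how they were assigned is not given in the sources used here. IRC13, a protein-coding gene that overlaps snR17a on the same strand, stayed under 1 TPM in every library.

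snR30 is a box H/ACA RNA that guides no known modification and is needed for the cuts that release 18S rRNA. It had the highest mean TPM of the snoRNAs over the 6 libraries, although snR17a was above it in control libraries 1 and 3. The snR30 levels of 50123, 53327 and 47964 TPM in the dChr libraries and 50625, 53772 and 51543 TPM in the control libraries overlapped, with a log2 fold change of -0.04 (SE 0.142, limma adjusted p = 0.881). snR128, the box C/D RNA U14 with a role in the same cleavages, stood at 5.03, 5.56 and 5.08 TPM in the dChr libraries, against 2.44, 2.06 and 6.30 TPM in the control libraries. Control library 3 was the highest of all 6, so the groups overlapped (log2 fold change 0.55, SE 0.327, adjusted p = 0.335). Of 17 alternatives snR128 was called in 1, the fit without that library (log2 fold change 0.94, limma adjusted p = 0.0184). Over the 17 its adjusted p reached 0.593.

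Among the pseudouridylation guides, 5 rose in the dChr strain and 1 fell. snR34 guides 2 positions of 25S rRNA, U2826 and U2880. It stood at 49.9, 52.2 and 37.5 TPM in the dChr libraries, against 29.2, 23.1 and 26.9 TPM in the control libraries. This was the largest of the 5 rises, with means of 46.5 ± 7.88 and 26.4 ± 3.08 TPM (SD, n = 3), a log2 fold change of 0.79 (SE 0.153) and a limma adjusted p of 0.0201. snR161, which guides U632 and U766 of 18S rRNA, stood at 83.9, 87.9 and 79.2 TPM against 60.8, 59.5 and 52.6 TPM. Its lowest dChr library was above its highest control library (log2 fold change 0.53, SE 0.0909, adjusted p = 0.0128).

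The other 3 rises were smaller and in more abundant guides. snR83 guides U1290 and U1415 of 18S rRNA, and it stood at 346, 362 and 312 TPM in the dChr libraries and 236, 227 and 274 TPM in the control libraries (log2 fold change 0.47, SE 0.106, limma adjusted p = 0.0335). snR44, which guides U106 of 18S and U1056 of 25S rRNA, stood at 1088, 974 and 1116 TPM against 806, 755 and 797 TPM (log2 fold change 0.43, SE 0.0908, adjusted p = 0.0273). snR85, predicted to guide U1181 of 18S rRNA, stood at 239, 238 and 238 TPM against 167, 193 and 192 TPM (log2 fold change 0.38, SE 0.0856, adjusted p = 0.0346). In all 3 the libraries of the strains were apart. These calls lay near the threshold: over 18 alternatives the call was lost in 10 for snR83, 8 for snR44, 7 for snR85, and in 4 each for snR161 and snR34, while the log2 fold change of all 5 stayed positive. Leaving out a single library ended the call in 5 of 6 cases for snR83 and for snR44, in 4 of 6 for snR85 and for snR34, and in 2 of 6 for snR161.

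snR8, a guide to U960 and U986 of 25S rRNA, went the other way. It stood at 11.4, 11.8 and 9.94 TPM in the dChr libraries, against 18.8, 17.97 and 19.6 TPM in the control libraries. The lowest control library was above the highest dChr library, with means of 11.04 ± 0.978 and 18.8 ± 0.815 TPM (SD, n = 3). The log2 fold change was -0.72 (SE 0.0992, limma adjusted p = 0.00597), and it was called under all 18 alternatives, with adjusted p from 0.00245 to 0.0348.

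A further 9 box H/ACA snoRNAs had libraries that did not overlap and were not called. They are named after their values were seen, and 34.1% of all tested transcripts, called or not, had no overlap. snR189, snR191, snR3, snR31, snR33, snR36, snR49 and snR9 were higher in every dChr library, with log2 fold changes from 0.19 (snR189) to 0.70 (snR9). The lowest adjusted p among these 8 was 0.0599, for snR3, at 355, 458 and 369 TPM in the dChr libraries, against 286, 307 and 272 TPM in the control. snR42 was lower in every dChr library, at 3784, 3935 and 3459 TPM against 4663, 5157 and 4473 TPM (log2 fold change -0.35, SE 0.110, limma adjusted p = 0.0909).

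**Figure D2:**
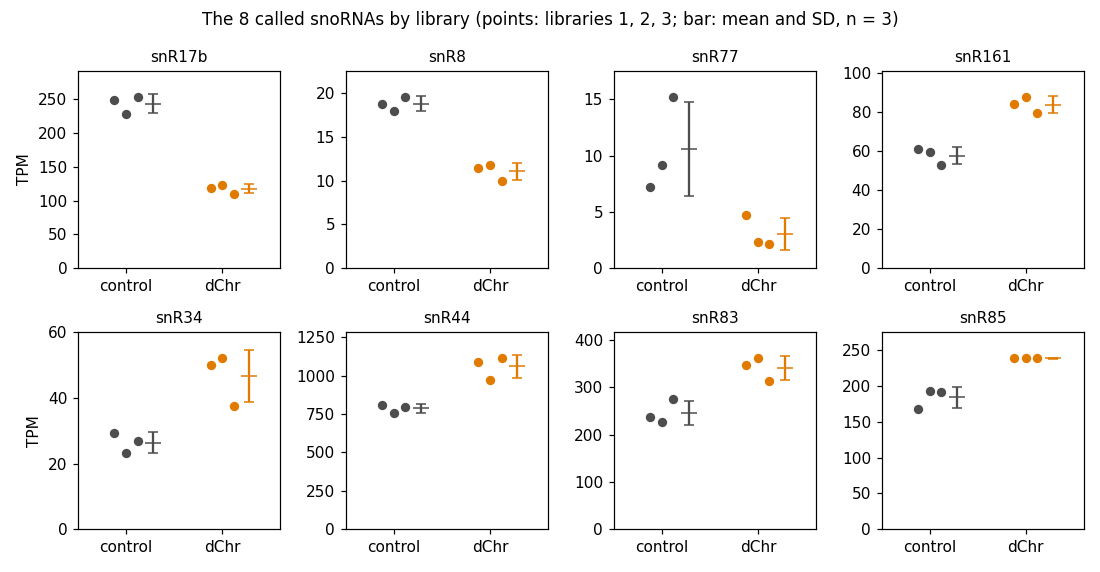
TPM of the 8 called snoRNAs in each library, control in grey and dChr in orange; points are libraries 1, 2 and 3 from left to right and the bar beside them is the mean and SD (n = 3). Each panel has its own TPM axis, which starts at 0. In every panel the strains' points are apart. Relative to its panel's axis, snR77 has the widest spread within a strain, from 7.25 to 15.2 TPM in the control.

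Of the methylation guides, snR77 was the only one called, and it was called lower. It guides the 2′-O-methylation of U578 in 18S rRNA, and its sequence above carries both boxes. It stood at 4.71, 2.30 and 2.14 TPM in the dChr libraries, against 7.25, 9.17 and 15.2 TPM in the control libraries. The groups did not overlap, although control library 3 was well above the other two. The log2 fold change was -1.51 (SE 0.327, limma adjusted p = 0.0292), and the call was lost in 5 of 17 alternatives, which include 4 of the 6 that leave out a library. With the replicate number as a block its adjusted p was 0.0818.

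snR77 is cut from a precursor that also carries the methylation guides snR72 to snR78, and its neighbours did not pass the test. snR74, snR75, snR76 and snR78 had log2 fold changes of -0.35, 0.17, -0.10 and -0.57, and their libraries overlapped between the strains. snR76, for example, stood at 5.63, 7.42 and 6.51 TPM in the dChr libraries, against 6.63, 6.84 and 7.72 TPM in the control. snR72 was under the filter, at 0.701 ± 0.283 and 0.801 ± 0.328 TPM (SD, n = 3).

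Members of the other clusters differed in level, and none was called. snR41, snR70 and snR51, all methylation guides from a single precursor, had means over the 6 libraries of 167, 130 and 10.6 TPM, with adjusted p from 0.346 to 0.786. snR190 and snR128 come from the same transcript and had means of 3065 and 4.41 TPM. In the pair snR67 and snR53 the means were 2.65 and 15.3 TPM, and the log2 fold changes of 0.31 and 0.37 had overlapping libraries only in snR67. snR57, snR55 and snR61 had log2 fold changes of -0.58, -0.26 and 1.02, and the strains' libraries were apart only for snR57, at 7.88, 4.44 and 5.198 TPM against 8.38, 8.92 and 9.81 TPM (limma adjusted p = 0.107).

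The guides for cytosine acetylation, snR4 and snR45, position Kre33, the acetyltransferase of 18S rRNA. snR45 stood at 791, 834 and 678 TPM in the dChr libraries and 607, 568 and 632 TPM in the control libraries. Its libraries did not overlap, and it was not called (log2 fold change 0.35, SE 0.107, limma adjusted p = 0.0891). snR4, at 93.5, 125 and 108 TPM against 105, 96.2 and 153 TPM, overlapped between the strains (adjusted p = 0.810).

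In 3 abundant snoRNAs a library lay far below the others of its strain. The criterion was a library at least 4-fold from both others of its strain, on TPM + 1, while those were within 2-fold of each other. It was met by 3 of the 64 tested snoRNAs (4.69%) and by 208 of the 5938 tested transcripts (3.50%). Among transcripts of the annotation with a mean of at least 1000 TPM it was met by 10 of 88, and 3 of the 14 snoRNAs among those were the same 3: snR17a, described above, snR37 and snR190.

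snR37 guides pseudouridylation of U2944 in 25S rRNA and has a role in the early steps of 60S assembly. It stood at 3849, 14261 and 2712 TPM in the dChr libraries, against 14810, 126 and 8092 TPM in the control libraries. Control library 2 was 63.5-fold under the next control library, dChr library 2 was the highest of its strain, and the other libraries of the strains overlapped. The log2 fold change was 1.10 (SE 1.78, limma adjusted p = 0.744), and without control library 2 it turned to -1.05 (adjusted p = 0.443). snR190, a box C/D RNA predicted to guide methylation of 25S rRNA, stood at 5482, 5112 and 893 TPM in the dChr libraries, against 4465, 293 and 2147 TPM in the control libraries. Here dChr library 3 was 5.72-fold under the next library of its strain, and control library 2 was lower still. The log2 fold change of 1.05 (SE 1.14, adjusted p = 0.602) was -0.08 without control library 2 (adjusted p = 0.967) and 1.91 without dChr library 3, so both low libraries bear on it.

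snR17a and snR190 were accompanied by assembled transcripts, rows without an annotated gene, that ran opposite to them. They were picked from 643 such rows after the values were seen. MSTRG.5874.4 stood at 17467, 14333 and 16369 TPM in the dChr libraries and was listed at 0, 21144 and 0 TPM in control libraries 1, 2 and 3, where snR17a was high, low and high. MSTRG.5237.1 was listed at 4.79, 5.40 and 3461 TPM in the dChr libraries, against 8.25, 4751 and 927 TPM in the control libraries, so it was highest where snR190 was lowest in each strain. These rows have no coordinates, and whether they hold reads of the snoRNAs was not tested.

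**Figure D3:**
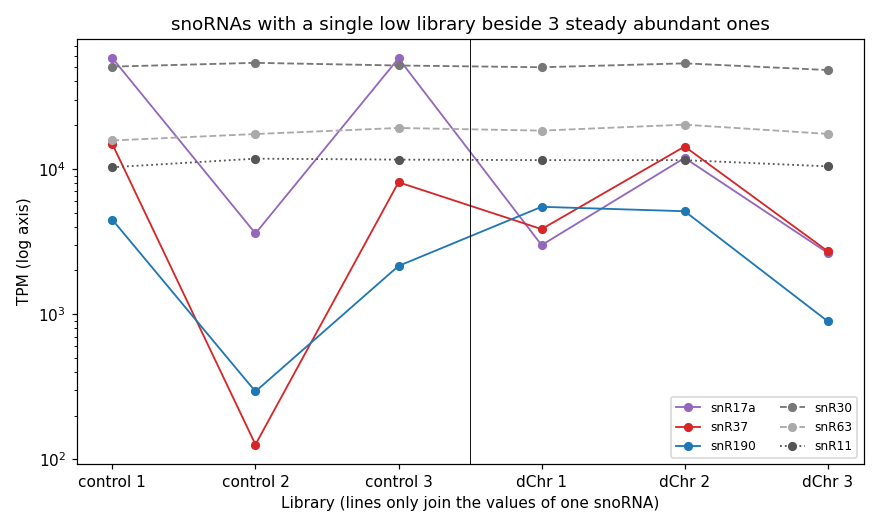
TPM (log axis) of snR17a, snR37 and snR190 in each library, with snR30, snR63 and snR11, 3 of the 4 snoRNAs with the highest mean, as grey dashed or dotted lines. Lines only join the values of a snoRNA. Control library 2 is the lowest control library of all 3 coloured snoRNAs, down to 126 TPM for snR37, while snR30 stays between 47964 and 53772 TPM.

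The totals of the class moved with its most variable abundant members. All 73 snoRNAs together held 123785, 150096 and 111599 TPM in the dChr libraries and 183318, 117559 and 180561 TPM in the control libraries. The sums overlapped (log2 difference -0.30, exact permutation test, two-sided p = 0.3). Without snR17a, snR37 and snR190, a choice made after seeing the data, the sums lay between 105354 and 118825 TPM in all 6 libraries and the difference was 0.01 (exact p = 1). The box C/D sum differed by -0.86 (exact p = 0.3), and without snR17a and snR190 by 0.09 (exact p = 0.5). The box H/ACA sum differed by -0.02 (exact p = 1).

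The next most abundant snoRNAs after snR30 and snR17a were steady. snR63, a methylation guide for A2256 of 25S rRNA, stood at 18352, 20174 and 17412 TPM in the dChr libraries and 15696, 17387 and 19144 TPM in the control libraries (log2 fold change 0.10, limma adjusted p = 0.694). snR11, a pseudouridylation guide for U2416 of 25S rRNA, stood at 11494, 11491 and 10414 TPM against 10271, 11764 and 11588 TPM (log2 fold change -0.01, adjusted p = 0.975). The libraries of both overlapped between the strains.

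At the other end, 9 snoRNAs had a mean under 1 TPM and were not tested: snR39B, snR40, snR47, snR64, snR65, snR66, snR68, snR72 and snR81. All but snR81 are box C/D. Values listed at exactly 0 occurred in 6 snoRNAs, 3 libraries of snR64 and 2 each of snR47, snR61, snR65, snR66 and snR81. Each of the 6 libraries held between 1 and 4 such zeros, and no snoRNA was at 0 in all 6 libraries. snR81, a box H/ACA guide of 201 bases, was listed at 0, 0 and 0.134 TPM in the dChr libraries and stood at 0.589, 0.618 and 0.250 TPM in the control libraries, which did not overlap. snR61, a methylation guide, was the only tested snoRNA with zeros. It stood at 0.692, 3.30 and 2.18 TPM in the dChr libraries and was listed at 0, 0 and 1.79 TPM in the control libraries, which overlapped (limma adjusted p = 0.271).

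Length went with level across the members. The 38 snoRNAs of up to 136 bases were all box C/D and had a median of 3.78 TPM (each snoRNA's mean over the 6 libraries). The highest was snR41 at 167 TPM. The 35 snoRNAs of 161 bases or more, all 28 box H/ACA members and 7 of the box C/D class, had a median of 341 TPM. Spearman's rho between annotated length and mean TPM was 0.70 over the 73 members and 0.55 over the 28 box H/ACA members. These points share the same libraries and TPM itself divides by length, so the correlation is given as a description. RNA was purified on the columns of an RNeasy kit, and the part that recovery of short RNA or the counting of short genes had in these levels was not tested.

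**Figure D4:**
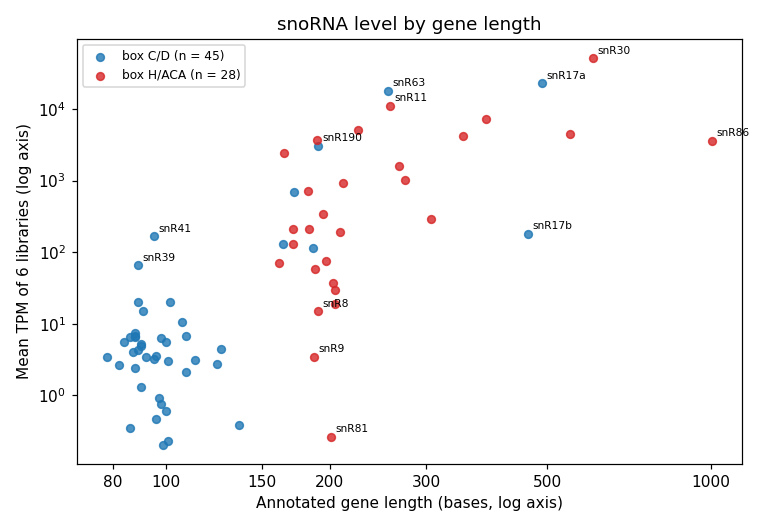
Mean TPM over the 6 libraries (log axis) against annotated gene length in bases (log axis) for the 73 snoRNAs, box C/D in blue (45) and box H/ACA in red (28). No member lies between 136 and 161 bases, and the short group on the left reaches at most 167 TPM (snR41), while the long group runs from 0.265 TPM (snR81) to 51226 TPM (snR30).

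The short snoRNAs were also summed on their own, where snR41 and snR39 weighed most, with means of 167 and 65.7 TPM over the 6 libraries. The 38 members of up to 150 bases summed to 383, 411 and 364 TPM in the dChr libraries and to 417, 423 and 454 TPM in the control libraries. These did not overlap (log2 difference -0.16, exact permutation test, two-sided p = 0.1, the smallest possible, so the difference could not pass the threshold), and the length limit was chosen after the values were seen. Of the 30 tested, 1 was called lower (snR77) and none higher, where 9.16% of all transcripts were called lower and 4.19% higher, and 4 (13.3%) had an unadjusted p under 0.05, against 27.8%. They had a median log2 fold change of -0.26, against -0.04 over all tested transcripts. The 34 tested members above 150 bases had 5 called higher and 2 lower and a median of 0.23.

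snoRNAs in introns are released when the host's intron is spliced out and opened, so each was set beside the mRNA of its host. Of the 8 pairs, the clearest contrast was snR191 with NOG2. snR191 guides U2258 and U2260 of 25S rRNA, and NOG2 encodes a GTPase of 60S subunit assembly. NOG2 stood at 5.94, 7.92 and 8.11 TPM in the dChr libraries, against 17.7, 25.2 and 18.4 TPM in the control libraries. It was called lower, with a log2 fold change of -1.36 (SE 0.175, limma adjusted p = 0.00479). How this call held under the alternative settings is not given here. snR191, at 1146, 1253 and 1080 TPM against 886, 732 and 958 TPM, did not follow its host: every dChr library was above every control library (log2 fold change 0.44, SE 0.127, adjusted p = 0.0740). The log2 ratio of snoRNA to host was 7.37, 7.14 and 6.89 in the dChr libraries and 5.56, 4.81 and 5.63 in the control libraries, a difference of 1.80 with no overlap (exact permutation test, two-sided p = 0.1, the smallest possible).

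In the other pairs the host was not called and the ratio moved less. snR39 and RPL7A, which encodes a 60S ribosomal protein, had log2 ratios of -3.45, -3.53 and -3.61 in the dChr libraries against -2.67, -3.14 and -2.81, a difference of -0.66 without overlap. snR39 itself stood at 55.2, 60.6 and 52.2 TPM against 74.1, 67.7 and 84.6 TPM (log2 fold change -0.42, SE 0.110, limma adjusted p = 0.0546). The ratio was also without overlap for snR54 in IMD4, an IMP dehydrogenase gene (difference -0.53), and for the called snR44 in RPS22B, which encodes a 40S ribosomal protein (difference 0.24). It overlapped for snR18 in EFB1, snR24 in ASC1, snR38 in TEF4 and snR59 in RPL7B, with differences between -0.64 and 0.06. Over the 8 pairs the smallest exact p was 0.1, so no single ratio could pass the threshold.

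**Figure D5:**
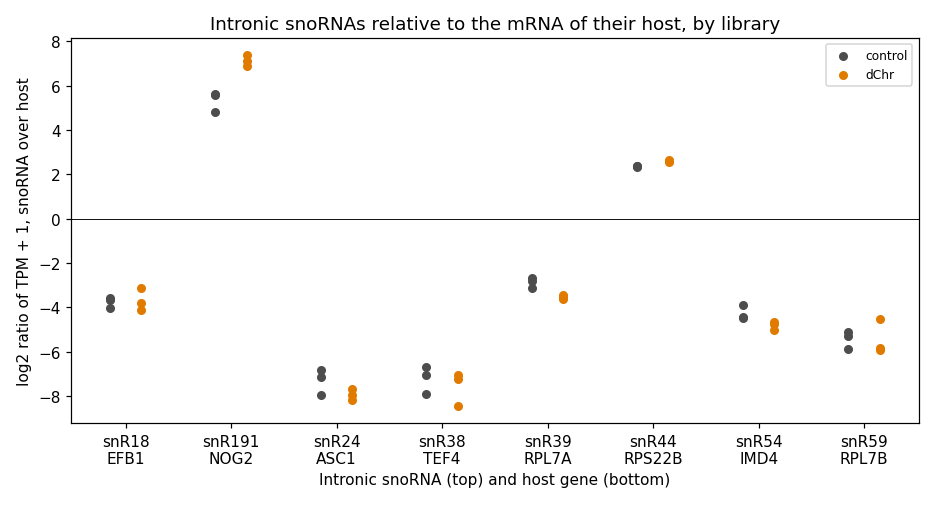
Log2 ratio of TPM + 1 of each intronic snoRNA (upper label) over its host mRNA (lower label), control in grey and dChr in orange, with a point per library. The ratio of snR191 to NOG2 is the only one that rises by more than 1 log2 unit, from 4.81 to 5.63 in the control libraries to 6.89 to 7.37 in the dChr libraries.

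Genes for the proteins of the snoRNPs were tested beside the RNAs. Of 17 core and assembly proteins 13 were tested, 1 (7.69%) was higher and none lower, against 13.4% of all transcripts called, and 4 (30.8%) had an unadjusted p under 0.05, against 27.8%. The libraries of the strains were apart for 4 of the 13 (30.8%), against 34.1% of all tested transcripts. RVB1 was higher and NHP2, SHQ1 and NOP1 were lower. The called gene was RVB1, an ATPase that helps to assemble box C/D particles, at 6.08, 9.11 and 8.89 TPM in the dChr libraries and 3.08, 4.85 and 4.45 TPM in the control libraries (log2 fold change 0.81, SE 0.204, limma adjusted p = 0.0471). The RVB1 call lay near the threshold, and how it held under the alternative settings is not given here. RVB2, the partner ATPase of RVB1, stood at 2.76 ± 0.999 and 2.67 ± 0.965 TPM (SD, n = 3) and was not called. NOP1, the methyltransferase of box C/D particles, was at 38.5 ± 6.05 and 51.1 ± 7.92 TPM (adjusted p = 0.158), and CBF5, the pseudouridine synthase, at 63.8 ± 9.02 and 74.1 ± 14.0 TPM (adjusted p = 0.491). NHP2, a core protein of box H/ACA particles, stood at 3.81 ± 0.986 and 6.41 ± 0.698 TPM (log2 fold change -0.64, adjusted p = 0.0661). SHQ1, an assembly chaperone of Cbf5, stood at 0.753 ± 0.132 and 1.63 ± 0.0944 TPM (log2 fold change -0.59, adjusted p = 0.0893). NHP2, SHQ1, NOP1, CBF5 and RVB2 are named after their values were seen. Of 12 tested genes for transcription termination and 3′ or 5′ trimming of snoRNAs none was called by limma, and 1 (8.3%) had an unadjusted p under 0.05, against 27.8% of all tested transcripts. The 2 most abundant of these were XRN1, a 5′ exonuclease (adjusted p = 0.573), and RAT1, its nuclear relative (adjusted p = 0.328).

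None of the 8 other stable non-coding RNAs tested was called by limma, and 2 (25%) had an unadjusted p under 0.05. Over all tested transcripts these shares were 13.4% and 27.8%, and 8 RNAs are too few to tell the list from that background. The strains' libraries did not overlap for 2 of the 8 (25%), against 34.1% of all tested transcripts. NME1, the RNA of RNase MRP, stood at 11311, 13632 and 11350 TPM in the dChr libraries and 8438, 8851 and 9614 TPM in the control libraries, without overlap (log2 fold change 0.43, SE 0.132, adjusted p = 0.0884). RPR1, the RNA of RNase P, was likewise higher in every dChr library (log2 fold change 0.33, adjusted p = 0.0987). The libraries of LSR1 and snR14, which are spliceosomal RNAs, and of the telomerase RNA TLC1 overlapped (adjusted p from 0.365 to 0.914). As in snR17a and snR37, control library 2 was far below its strain in the spliceosomal snR7-S, at 693 TPM against 12728 and 12137 TPM. In snR19 it stood at 153 TPM against 7513 and 5757 TPM, and dChr library 3, low in snR190 too, at 700 TPM against 6330 and 7222 TPM. SCR1, the RNA of the signal recognition particle, ran from 611 to 69711 TPM and was highest in library 3 of both strains. snR6 was under 1 TPM and was not tested.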

How the data were processed

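RNA was measured in 6 libraries, 3 of the dChr strain and 3 of the control strain. The deposited values are TPM for 7554 transcripts, summing to between 970077 and 992087 per library, so some transcripts are not analysed here. The tools named in the submitters' processing notes are HISAT2 2.0.5, StringTie 2.0, cutadapt 2.6, R 3.6.0 and DESeq2, and the build is sacCer3. What each did, and whether reads were counted by strand or filtered, is not given in the sources used here. Depth is unknown, and no count model was run here.

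The 5938 transcripts averaging 1 TPM or more were tested on the log2(TPM + 1) scale in R 4.3.3 by limma 3.58.1 (trended eBayes, two-sided, Benjamini-Hochberg adjustment, threshold 0.05), with no term for the replicate number. Sums and ratios were compared by exact permutation (scipy 1.17.1). Values, positions and sequences were joined with Python 3.11.15, pandas 2.3.3, numpy 2.4.6 and Biopython 1.88, and plotted with matplotlib 3.10.9. In simulated data with 200 of 5938 transcripts changed, dChr against control, the fit recovered 26.9% of those changed 1.5-fold, 71.6% at 2-fold and 90.9% at 4-fold. The simulated noise was normal and independent, with each transcript's own SD. Recovery for the snoRNAs alone, or for transcripts with a single distant library, was therefore not measured.

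The members and lists were chosen with earlier results of these data known; box classes and lists are from general knowledge, set beside the RefSeq notes. Text names called snoRNAs, those with zeros or a single distant library, the 5 most abundant, and the processing, intronic, clustered and acetylation-guide members, with others marked where named. Of the protein lists, called genes were named, and where there were none, the 2 of highest mean TPM. Alternatives were other pseudocounts, filters, scalings, variance models, leaving out each library and a replicate block. Same-numbered libraries deviated together with r of 0.087, -0.077 and 0.123 over transcripts, so the numbers were not taken as pairs.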

Additional observations from a re-analysis of the deposited data

How the results depend on the processing

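snR17b and snR8 were called lower in all 18 alternatives, and no called snoRNA changed direction in any. The 5 snoRNAs called higher became 1 with scaling on the snoRNAs and without the assembled transcripts, 3 without the eBayes trend, 9 with robust eBayes, and 1 to 3 when a library was left out. The 3 called lower became 5 with robust eBayes and with array weights, and 2 to 4 when a library was left out. Over all transcripts, 249 higher calls became 507 with median-ratio scaling, 555 with quantile normalization, 121 with scaling on the snoRNAs, 151 without assembled transcripts and 101 to 246 without a library; 544 lower calls became 291 with scaling on the snoRNAs, 360 without assembled transcripts and 253 to 402 without a library. The snoRNAs' median log2 fold change of 0.09 was -0.0086 with no filter, 0.20 at a mean of at least 10 TPM, and 0.02 to 0.11 without a library. Chosen after seeing the data, leaving out snR17a, snR37 and snR190 turned the log2 difference of the snoRNA sums to 0.0133, and that of the box C/D sums, without snR17a and snR190, to 0.0926. Leaving out a library gave log2 fold changes of snR190 from -0.0818 (without control library 2) to 1.91, and of snR37 from -1.05 (without control library 2) to 2.38. The cause of these shifts was not tested, except that leaving out a library lowers the number of samples. With the replicate block 5 snoRNAs were higher and 3 lower: snR3 (adjusted p = 0.0373) and snR62 (0.0467) passed, snR77 (0.0818) and snR83 (0.0761) did not. All transcripts then gave 268 higher and 566 lower calls; no label makes the number a pairing. The depth of the libraries is unknown, and how it limits scarce snoRNAs was not tested.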
